A study of Mus musculus with 6 samples.

Results

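The chemokine genes described here are 10 ligands that macrophages make: the CC chemokines Ccl2, Ccl3, Ccl4, Ccl5, Ccl6, Ccl7 and Ccl9 and the CXC chemokines Cxcl1, Cxcl2 and Cxcl10. They were chosen by name, out of 24562 gene symbols in the deposited table, and each was represented by the RefSeq transcript with the highest total count. Raw tag counts came from RNA-seq of bone marrow-derived macrophages (BMDMs), differentiated from bone marrow in medium with L929-conditioned medium and left unstimulated. The 3 control libraries came from Cre-negative Acly fl/fl mice, and the 3 AclyM-KO libraries from Acly fl/fl mice with LysMcre, a Cre recombinase expressed from the Lyz2 locus in macrophages, monocytes and neutrophils. Both groups thus carried the floxed allele, in which exon 9 of Acly is flanked by loxP sites, and the in vitro experiments used mice of 8 to 14 weeks on the C57BL/6J background. The series' design text names female mice, whereas the study's methods name males and females as bone marrow donors in vitro, so the sex behind these libraries is uncertain. Acly encodes ATP citrate lyase, which makes cytosolic acetyl-CoA from citrate. The paper's legends give technical replicates from 3 pooled mice for expression values taken from these data. The p-values therefore measure the spread between these libraries and not between mice. The comparison asks how loss of Acly alters the chemokine transcripts of macrophages that received no stimulus.

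Chemokines are small secreted proteins that bind G protein-coupled receptors on leukocytes and guide their migration. CC chemokines such as CCL2 and CCL7 recruit monocytes through CCR2, CCL3 and CCL5 can act on CCR1, and the CXC chemokines CXCL1 and CXCL2 recruit neutrophils through CXCR2. Many of the genes are induced in macrophages by NF-kappaB after toll-like receptor ligation, whereas Cxcl10 is a classical interferon-induced gene. BMDMs without a stimulus express some of them at a basal level.

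The CC members lie in 2 clusters of mouse chromosome 11 (build GRCm38, GENCODE M21). Ccl2 (82035571 to 82037453) and Ccl7 (82045712 to 82047525), both on the plus strand, are 8.3 kb apart. Ccl5 (83525778 to 83530518, minus strand), Ccl9 (83572919 to 83578636, minus strand), Ccl6 (83587882 to 83593087, minus strand), Ccl3 (83647844 to 83649355, minus strand) and Ccl4 (83662584 to 83664683, plus strand) follow further along the chromosome. Ccl9 and Ccl6 are 9.2 kb apart, and Ccl3 and Ccl4 13.2 kb. On chromosome 5, Cxcl1 (90891241 to 90893115) and Cxcl2 (90903871 to 90905938) are neighbours on the plus strand, 10.8 kb apart, and Cxcl10 (92346638 to 92348889) lies on the minus strand. Each gene has 3 or 4 exons, and the counts were summed per transcript without distinction of exons. An exon of Cxcl10 overlaps Art3 on the opposite strand, so reads of the pair can be told apart only if strand was used in counting, which was left at the default of the counting script. The spans of Ccl2 and Ccl6 also overlap a gene on the opposite strand, but no exons overlap.

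RefSeq promoter sequences were present for 6 of the 10 genes (Ccl3, Ccl6, Ccl9, Cxcl1, Cxcl2 and Cxcl10). The 250 bases before the annotated start (GRCm38.p6, 5′ to 3′ on the strand of the gene) were searched on both strands for a form of the kappaB motif (GGG and TTTCC with any 2 bases between them), the core of the interferon-stimulated response element (GAAA repeated after any 2 bases) and the AP-1 letters TGANTCA. Shown are the promoters of the neighbours Ccl9, which passed the test of genotype, and Ccl6, which did not. Those of Ccl3, which also passed, and of the CXC genes Cxcl2 and Cxcl10, which did not, are shown as well. Capitals mark the matches. Distances are counted from the RefSeq start, which is the GENCODE start given above for Ccl6, Ccl9 and Cxcl10 but not for Ccl3, Cxcl1 and Cxcl2. The Ccl3 window ends before the GENCODE gene begins, and those of Cxcl1 and Cxcl2 reach a short way into it.
Ccl9, chr11:83578637-83578886, minus strand: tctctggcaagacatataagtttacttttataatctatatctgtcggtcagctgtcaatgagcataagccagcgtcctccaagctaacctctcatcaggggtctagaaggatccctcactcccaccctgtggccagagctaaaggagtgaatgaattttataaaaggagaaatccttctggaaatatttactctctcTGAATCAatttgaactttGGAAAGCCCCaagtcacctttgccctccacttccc
Ccl6, chr11:83593088-83593337, minus strand: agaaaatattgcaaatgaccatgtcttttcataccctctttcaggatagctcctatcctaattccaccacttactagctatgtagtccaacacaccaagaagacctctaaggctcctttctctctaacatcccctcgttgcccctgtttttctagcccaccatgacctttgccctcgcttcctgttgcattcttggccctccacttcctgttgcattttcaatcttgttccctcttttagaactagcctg
Ccl3, chr11:83649379-83649628, minus strand: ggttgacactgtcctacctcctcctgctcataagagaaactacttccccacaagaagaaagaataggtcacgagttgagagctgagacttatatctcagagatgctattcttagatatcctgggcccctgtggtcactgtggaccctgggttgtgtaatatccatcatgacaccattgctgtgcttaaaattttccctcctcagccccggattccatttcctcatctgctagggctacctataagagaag
Cxcl2, chr5:90903649-90903898, plus strand: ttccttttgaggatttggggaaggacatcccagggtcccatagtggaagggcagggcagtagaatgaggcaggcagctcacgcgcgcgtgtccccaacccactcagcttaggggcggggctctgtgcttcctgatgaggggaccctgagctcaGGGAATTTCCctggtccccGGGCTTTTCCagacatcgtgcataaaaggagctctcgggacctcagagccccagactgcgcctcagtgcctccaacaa
Cxcl10, chr5:92348890-92349139, minus strand: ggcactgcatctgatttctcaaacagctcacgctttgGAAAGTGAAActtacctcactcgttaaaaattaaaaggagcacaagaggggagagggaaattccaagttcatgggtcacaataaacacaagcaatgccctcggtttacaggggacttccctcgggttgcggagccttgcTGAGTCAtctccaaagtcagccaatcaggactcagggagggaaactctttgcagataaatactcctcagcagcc

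This form of the kappaB motif was found in Ccl9, where GGAAAGCCCC on the printed strand lies 35 to 26 bases before the start. It was also found at a pair of places each in Cxcl1 and Cxcl2. In Cxcl2 the matches are GGGAATTTCC, 97 to 88 bases before the start, and GGGCTTTTCC, 78 to 69 bases before it. Cxcl1 holds GGAAACACCC at 89 to 80 bases and GGGAATTTCC at 71 to 62 bases. Of all 32851 promoters of this length, 1.41% hold the kappaB letters, 2.98% the interferon element and 6.75% the AP-1 letters. Cxcl10 has the interferon element at 213 to 204 bases and an AP-1 match at 74 to 68 bases before its start, and Ccl9 has an AP-1 match at 53 to 47 bases. The windows of Ccl3 and Ccl6 hold none of these letters. Other forms of the kappaB motif were not searched, so a window without a match, such as that of Cxcl10, can still hold a kappaB site. A match in this search is a description of the sequence and no measure of binding.

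The libraries held 11120034 to 13598887 counts in control and 11386212 to 25814853 in AclyM-KO macrophages, with 1 transcript per gene. Acly itself was at 220.4, 233 and 236 CPM (counts scaled to the same TMM-normalized library size) in the control libraries and at 93.3, 98.9 and 98.3 CPM in the AclyM-KO libraries, a log2 fold change of -1.25. Lyz2, whose locus carries the Cre, was also lower (log2 fold change -1.05). AclyM-KO replicate 2 was the deepest library and stood apart from the other AclyM-KO libraries over all genes, with a chi-square of the counts of 22.0 and 23.5 per gene against replicates 1 and 3, which differed from each other by 8.55, although this measure also grows with depth. It held the highest level of all 6 libraries for 6 of the 10 chemokines and the lowest for Ccl5 and Cxcl10. The tests of the members are therefore given with and without it.

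Of the 10 chemokines, 9 had enough counts to be tested, and Cxcl1 had too few for edgeR's filter. The transcripts of Ccl2, Ccl3 and Ccl9 were higher in AclyM-KO macrophages at an adjusted p of at most 0.05 (edgeR quasi-likelihood test, Benjamini-Hochberg over 11470 genes), and 6 did not pass. None was lower by edgeR or DESeq2, and before adjustment only Ccl5 was past 0.05 in that direction by edgeR. Of all tested genes, 6.7% were higher, 5.65% lower and 12.3% passed in either direction. The log2 fold changes ran from -0.54 for Ccl5 to 0.96 for Ccl2, with a median of 0.46 over the 9 genes. Without AclyM-KO replicate 2, 4 were higher, now with Ccl7, and none was lower, against 9.56% of 11554 tested genes higher and 8.92% lower. With no filter on low counts 4 members were higher (5.98% of all genes higher, 5.09% lower), and with DESeq2 2 were, Ccl3 and Ccl9 (5.96% higher, 5.16% lower). The AclyM-KO and control libraries did not overlap for 5 members: Ccl2, Ccl3, Ccl7 and Ccl9 were higher in each AclyM-KO library and Ccl5 lower, while 16.3% of all tested genes were higher without overlap, 16.6% lower and 32.8% either. The members were chosen with earlier results of these data known, so the counts describe these genes alone.

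**Figure D1:**
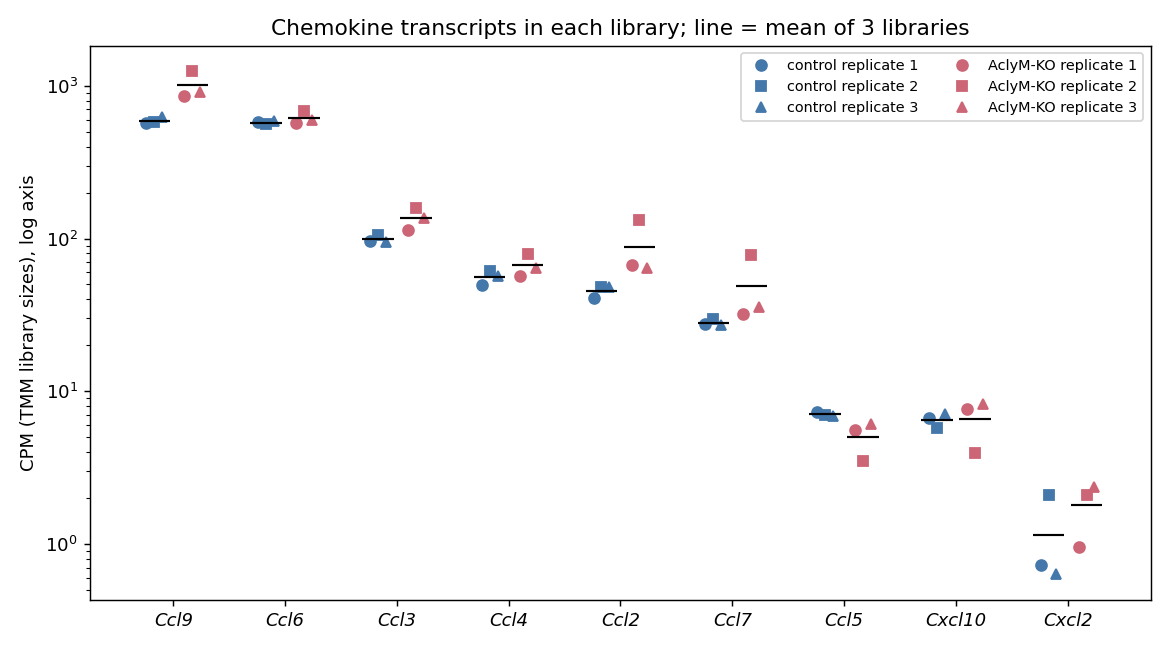
Level of the 9 tested chemokine transcripts in each library, in CPM on a log axis, with 3 control libraries in blue and 3 AclyM-KO libraries in red. Horizontal lines are group means; AclyM-KO replicate 2 (red squares) is the highest of all libraries for Ccl9, Ccl6, Ccl3, Ccl4, Ccl2 and Ccl7 and the lowest for Ccl5 and Cxcl10.

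Per length of transcript, Ccl6 was the most abundant member in control macrophages, at 399 ± 10.4 RPKM (CPM divided by transcript length in kb, SD, n = 3). It was followed by Ccl9 at 197 ± 9.60, Ccl3 at 129 ± 8.03, Ccl4 at 84.7 ± 9.0, Ccl2 at 56.1 ± 5.35, Ccl7 at 35.0 ± 1.64, Ccl5 at 13.3 ± 0.40 and Cxcl10 at 5.95 ± 0.64 RPKM. Cxcl2 (1.04 ± 0.74 RPKM) and Cxcl1 (0.026 ± 0.045 RPKM) closed the order, and no neighbours in it overlapped in their control libraries. In AclyM-KO macrophages the order was the same down to Ccl3, but Ccl2 (108 ± 46.8 RPKM) stood before Ccl4 (101 ± 17 RPKM). That exchange rested on AclyM-KO replicate 2, with 162 RPKM of Ccl2 and 119 of Ccl4, since replicates 1 and 3 held 82.4 and 78.8 RPKM of Ccl2 and 86.0 and 97.4 of Ccl4. There the libraries of Ccl6 (429 ± 41.4) and Ccl9 (335 ± 69.7) overlapped, as did those of Ccl3 and Ccl2, Ccl2 and Ccl4, Ccl4 and Ccl7, and Ccl5 and Cxcl10. In CPM the 10 members summed to 1377, 1398 and 1454 in control and 1716, 2387 and 1827 in AclyM-KO replicates 1, 2 and 3. Ccl6 and Ccl9 together made 80.9% to 83.4% of this sum in each library. Of this pair, Ccl9 rose from a mean of 592 to 1007 CPM, whereas Ccl6 was at 574 and 617 CPM and overlapped between the groups.

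Ccl9 encodes a CC chemokine of rodents, also known as MIP-1 gamma, that acts on CCR1. Its level was 572, 578 and 625 CPM in control and 862, 1247 and 912 CPM in AclyM-KO libraries, or 592 ± 28.9 against 1007 ± 209.6 (mean ± SD, n = 3 each). Each AclyM-KO library lay above each control library. The log2 fold change was 0.77 with a standard error of 0.12 (edgeR, adjusted p = 0.00196), or 1.70-fold with a 95% interval of 1.43 to 2.03. Without AclyM-KO replicate 2 the rise was 1.5-fold (interval 1.39 to 1.62, edgeR adjusted p = 1.52e-07). It was past the threshold under each of the 19 alternatives in which its fit was repeated.

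Ccl6, the neighbour of Ccl9 and also a rodent CC chemokine, acts through CCR1 as well. It had 576, 559 and 588 CPM in control and 570.3, 684 and 597 CPM in AclyM-KO libraries. The groups overlapped, and the fold change was 1.08 with an interval of 0.96 to 1.21 (edgeR, adjusted p = 0.412), and 1.02 with an interval of 0.95 to 1.09 without AclyM-KO replicate 2 (adjusted p = 0.775). The ratio of Ccl9 to Ccl6 counts within a library, which does not depend on depth or scaling, was 0.993, 1.04 and 1.06 in control and 1.51, 1.82 and 1.53 in AclyM-KO libraries. The mean ratio was 1.03 ± 0.03 in control and 1.62 ± 0.18 in AclyM-KO macrophages (SD, n = 3), and the groups did not overlap with or without AclyM-KO replicate 2. This pair was picked after the levels had been seen, so the ratio is a description.

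Ccl3 encodes MIP-1 alpha, a ligand of CCR1. It was at 96.3, 106 and 94.9 CPM in control and at 114, 158 and 136 CPM in AclyM-KO replicates, each above the highest control value. The log2 fold change was 0.46 with a standard error of 0.11 (edgeR, adjusted p = 0.0161), and 0.34 without AclyM-KO replicate 2 (adjusted p = 0.00286). Without control replicate 1 or control replicate 3 it no longer passed, at adjusted p = 0.0789 in each case (edgeR). Ccl4, which encodes MIP-1 beta, is the neighbour of Ccl3. Its values of 49.7, 61.6 and 56.5 CPM in control and 56.8, 78.9 and 64.3 CPM in AclyM-KO libraries overlapped, with a log2 fold change of 0.26 (edgeR, interval 0.00 to 0.52, adjusted p = 0.185) and of 0.11 without AclyM-KO replicate 2 (adjusted p = 0.400). The ratio of Ccl3 to Ccl4 counts was 1.94, 1.72 and 1.68 in control and 2.01, 2.0 and 2.12 in AclyM-KO libraries, without overlap but with the lowest AclyM-KO ratio close to the highest control ratio.

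**Figure D2:**
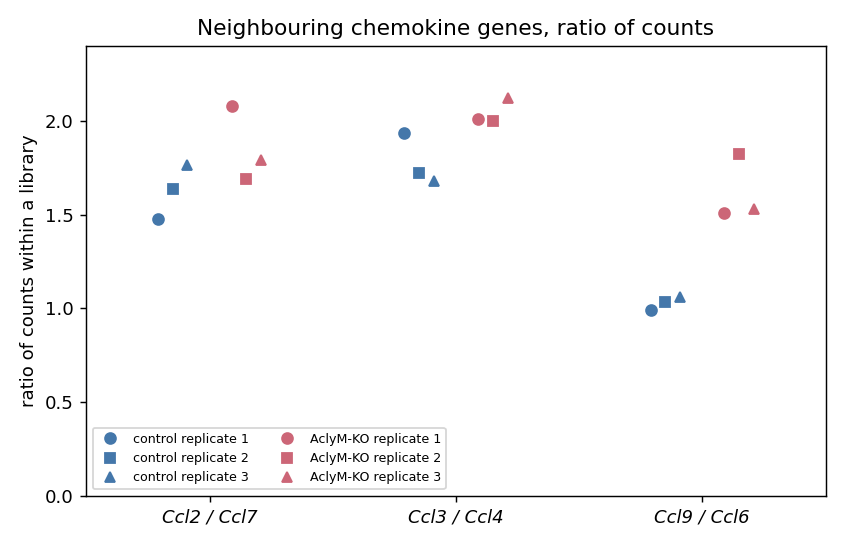
Ratio of counts of neighbouring chemokine genes within each library, with control in blue and AclyM-KO in red. The ratio of Ccl9 to Ccl6 is 0.993 to 1.06 in control and 1.51 to 1.82 in AclyM-KO libraries, while the ratio of Ccl2 to Ccl7 overlaps between the groups.

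Ccl2 encodes MCP-1, the main ligand of CCR2 on monocytes. Its level was 40.6, 48.4 and 47.8 CPM in control and 67.0, 131 and 64.0 CPM in AclyM-KO libraries, or 45.6 ± 4.35 against 87.5 ± 38.1 (mean ± SD, n = 3). Each AclyM-KO library exceeded each control library, but replicate 2 was at 2.01 times the mean of the other AclyM-KO libraries. The fold change was 1.94 with an interval of 1.38 to 2.74 (edgeR, adjusted p = 0.0178) in all libraries and 1.44 with an interval of 1.28 to 1.61 (adjusted p = 1.16e-04) without that library. With DESeq2 on all 6 libraries the adjusted p was 0.0610, and with edgeR it was 0.0835, 0.0589 and 0.0601 without control replicate 1, 2 or 3.

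Ccl7, or MCP-3, lies next to Ccl2 and also acts on CCR2. It was at 27.5, 29.5 and 27.1 CPM in control and at 32.2, 77.6 and 35.8 CPM in AclyM-KO libraries, again without overlap. AclyM-KO replicate 2 had 2.28 times the mean of the other AclyM-KO libraries. In all libraries the log2 fold change was 0.82 with a standard error of 0.27 and did not pass (edgeR, adjusted p = 0.0641). Without replicate 2 the log2 fold change was lower, at 0.28 with a standard error of 0.09, and passed (adjusted p = 0.0360). The log2 fold change also passed without AclyM-KO replicate 1 (1.04, edgeR adjusted p = 0.0156) and without AclyM-KO replicate 3 (1.0, adjusted p = 0.0481). It did not pass without control replicate 1, 2 or 3 (edgeR, adjusted p = 0.174, 0.151 and 0.179). With DESeq2 on all 6 libraries it did not pass either (adjusted p = 0.236). Counts of Ccl2 were 1.48, 1.64 and 1.77 times those of Ccl7 in control and 2.08, 1.69 and 1.79 times in AclyM-KO libraries, so the ratio overlapped although both levels moved in AclyM-KO replicate 2.

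Ccl5 encodes RANTES, a ligand of CCR1 and CCR3 made by T cells and by stimulated macrophages. It was low, at 7.28, 7.03 and 6.86 CPM in control and 5.57, 3.48 and 6.11 CPM in AclyM-KO libraries (76 to 94 and 64 to 92 counts). Each AclyM-KO library lay below each control library. The log2 fold change of -0.54 with a standard error of 0.21 did not pass the test (edgeR, adjusted p = 0.126), nor did -0.27 without AclyM-KO replicate 2 (adjusted p = 0.307).

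Cxcl10 encodes IP-10, a ligand of CXCR3. Control libraries held 73, 77 and 79 of its counts and AclyM-KO libraries 88, 104 and 95, which correspond to 6.64, 5.75 and 7.13 CPM and to 7.66, 3.93 and 8.29 CPM. AclyM-KO replicate 2 was below each control library and the other AclyM-KO libraries were above each, and the log2 fold change was -0.03 with an interval of -0.59 to 0.53 (edgeR, adjusted p = 0.951). Without that library it was 0.30 with an interval of -0.05 to 0.66 (adjusted p = 0.237), so no direction can be given for Cxcl10.

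Cxcl2, or MIP-2, was counted 8, 28 and 7 times in control and 11, 55 and 27 times in AclyM-KO libraries. In CPM this was 0.73, 2.09 and 0.63 against 0.96, 2.08 and 2.36, which overlap. The log2 fold change was 0.62 with an interval of -0.36 to 1.60 (edgeR, adjusted p = 0.412), so neither a decrease nor a rise of more than 2-fold was outside it. Without AclyM-KO replicate 2 it was 0.46 with an interval of -0.56 to 1.48 (edgeR, adjusted p = 0.565). Cxcl1, or KC, was near the limit of detection, counted 0, 1 and 0 times in control and 0, 5 and 5 times in AclyM-KO libraries. The ratio of summed counts over library sizes was 7.18 with a counting interval of 1.02 to 311, and 3 counts, the most that a count of 0 allows, correspond to 0.113 to 0.273 CPM in these libraries. This interval covers counting error only, and the fit without a filter gave an adjusted p of 0.287 (edgeR).

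**Figure D3:**
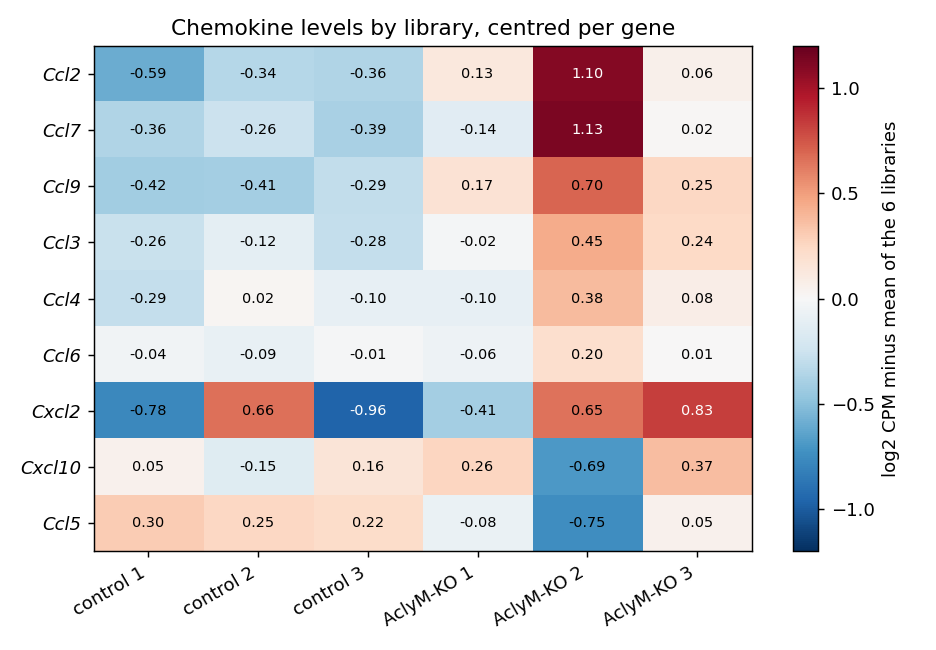
Level of the 9 tested chemokines in each library as log2 CPM minus the mean of the 6 libraries for that gene, with red above and blue below the mean. Ccl2 and Ccl7 reach 1.10 and 1.13 in AclyM-KO replicate 2 and -0.59 to -0.26 in control libraries, whereas Ccl5 and Cxcl10 are at -0.75 and -0.69 in that AclyM-KO library.

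Among the tested ligands, Ccl8, Ccl12 and Ccl24, which are not members, had higher fold changes than any tested member, although Ccl24 did not pass (log2 fold change 1.51, edgeR adjusted p = 0.0616). Of 27 other chemokine ligands, 10 were at 0 in all libraries and 8 were tested, of which 3 were higher and 1 was lower (50% past the threshold, against 12.3% of all genes), and 2 passed without control replicate 2 (against 5.69% of all genes). Ccl8 and Ccl12 belong to the same monocyte chemoattractant cluster as Ccl2 and Ccl7, at 82115185 to 82116799 and 82101845 to 82103400 on chromosome 11. Ccl8, or MCP-2, was at 3.18, 3.06 and 3.25 CPM in control and 12.8, 17.2 and 16.8 CPM in AclyM-KO libraries, with a log2 fold change of 2.31 and a standard error of 0.17 (edgeR, adjusted p = 8.22e-06). Without AclyM-KO replicate 2 the log2 fold change of Ccl8 was 2.22, so in contrast to Ccl2 and Ccl7 it hardly moved.

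Ccl12, or MCP-5, was at 2.64, 2.17 and 3.25 CPM in control and 5.05, 15.5 and 6.46 CPM in AclyM-KO libraries. This was a log2 fold change of 1.84 (standard error 0.39, edgeR adjusted p = 0.0110), and of 1.11 without AclyM-KO replicate 2 (adjusted p = 0.00260). Pf4, platelet factor 4, which mouse macrophages also express, rose from 90.4, 105 and 106 CPM to 115, 144 and 127 CPM (log2 fold change 0.36, edgeR adjusted p = 0.0295). Cxcl16, a membrane-bound ligand of CXCR6 that also binds oxidized LDL, was lower, with 119, 112 and 119 CPM in control and 88.0, 70.4 and 86.1 CPM in AclyM-KO libraries (log2 fold change -0.52, edgeR adjusted p = 0.00366).

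**Figure D4:**
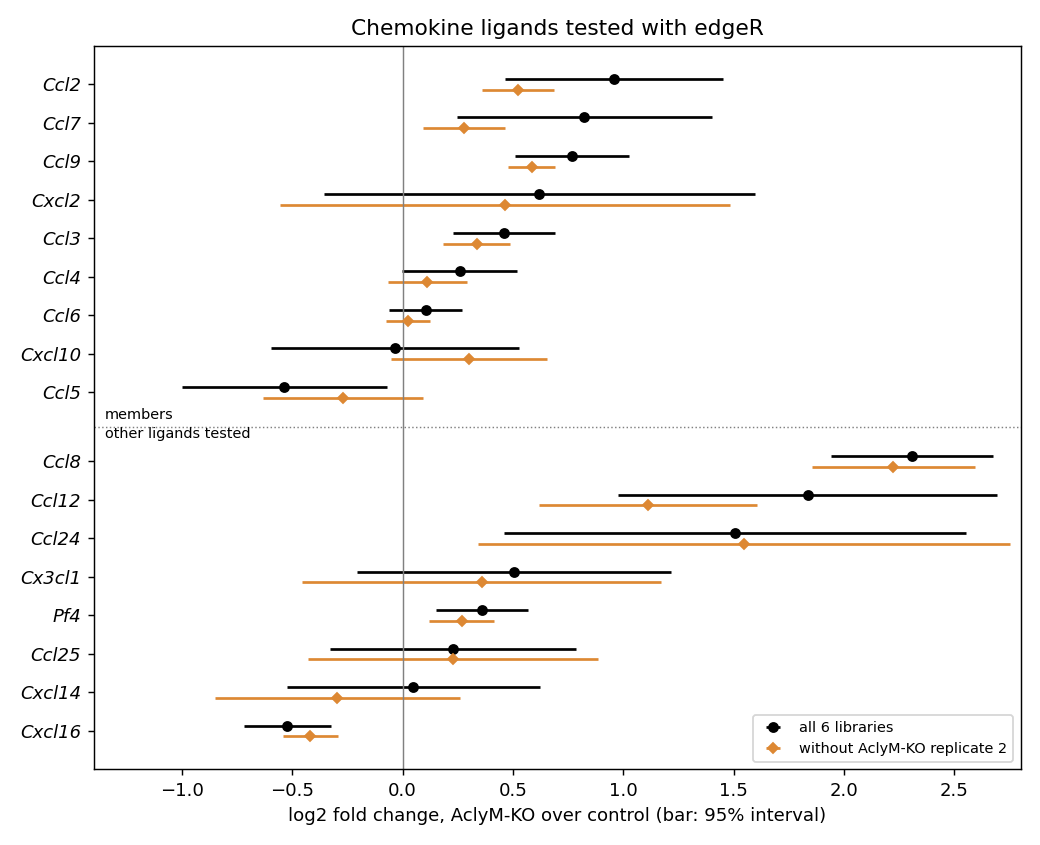
Log2 fold change of AclyM-KO over control with its 95% interval for the 9 tested members and the 8 other tested ligands, in black from all 6 libraries and in orange without AclyM-KO replicate 2. Ccl2 moves from 0.96 to 0.52 and Ccl7 from 0.82 to 0.28 without that library, while Ccl8 stays at 2.31 and 2.22 and Cxcl16 at -0.52 and -0.42.

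Of 23 chemokine receptor genes, 8 were tested, with 1 higher and 1 lower (25.0%, against 12.3% of all genes). Cxcr4, the receptor of CXCL12, was at 213, 195 and 188 CPM in control and 158, 110.0 and 151 CPM in AclyM-KO libraries (log2 fold change -0.51, edgeR adjusted p = 0.0158). Ccr3 was higher, with 20.8, 24.3 and 27.2 CPM in control and 27.6, 46.1 and 32.9 CPM in AclyM-KO libraries (log2 fold change 0.58, edgeR adjusted p = 0.0456), but its log2 fold change without AclyM-KO replicate 2 was 0.33 (adjusted p = 0.0467). Ccr1, a receptor of several CC members, had a log2 fold change of -0.25 and did not pass (edgeR, adjusted p = 0.134). Without AclyM-KO replicate 2 it was at -0.36 and passed (edgeR, adjusted p = 0.00393), and 4 receptors passed in all, while 18.5% of all genes passed in that comparison. Without control replicate 1 or 2 no receptor passed (edgeR, against 5.15% and 5.69% of all genes), and 1 passed without control replicate 3 or AclyM-KO replicate 3 (against 5.41% and 9.08%).

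Of 24 regulators of NF-kappaB and interferon signalling, all of them tested, 1 was higher and 1 was lower (8.33%, against 12.3% of all genes), with a median log2 fold change of -0.01. Without AclyM-KO replicate 1, 5 of the 24 passed, against 14.2% of all genes, and without AclyM-KO replicate 2, 4 passed, against 18.5% of all genes. Stat2, part of the interferon-induced ISGF3 complex, had a log2 fold change of 0.47 (edgeR, adjusted p = 0.00808), and Irf8, a factor of myeloid development, of -0.55 (adjusted p = 0.00326). The most abundant of the others were Atf3, at 0.29 (edgeR, adjusted p = 0.0556), and Jun, at 0.13 (adjusted p = 0.311). Without AclyM-KO replicate 2 Atf3 was at 0.19 and passed (edgeR, adjusted p = 0.0294), and Jun was at 0.11 (adjusted p = 0.290). The kappaB subunits Rela and Nfkb1, named in addition after their values had been seen, were at -0.11 and -0.15 and did not pass (edgeR, adjusted p = 0.529 and 0.176). Rel and Relb were at -0.15 and -0.13 and Nfkb2 at 0.12, and none passed (edgeR, adjusted p = 0.334, 0.513 and 0.482). Without AclyM-KO replicate 2 Nfkb2 was at 0.22 and passed (edgeR, adjusted p = 0.0392), and Rela was at 0.02 (adjusted p = 0.872). Of 8 factors that bind and control the decay or stability of mRNAs, 1 passed (12.5%, near the 12.3% of all genes): Zfp36l1, with a log2 fold change of -0.52 (edgeR, adjusted p = 0.00618). Zfp36l2 and Khsrp were at -0.14 and -0.04 (adjusted p = 0.421 and 0.839).

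The macrophage markers Adgre1, Csf1r, Cd68, Itgam, Mertk and Fcgr1 were present in each library, and their summed level was 8422 to 8626 CPM in control and 6832 to 8085 CPM in AclyM-KO libraries, lowest in AclyM-KO replicate 2. Of these 6 markers, Mertk and Csf1r were lower (log2 fold changes -0.67 and -0.48, edgeR adjusted p = 0.00202 and 0.0391), while 5.65% of all genes were lower, and the other 4 did not pass. Without AclyM-KO replicate 2 the log2 fold changes were -0.55 for Mertk and -0.30 for Csf1r, and Fcgr1 also passed at -0.30 (edgeR, adjusted p = 4.87e-06, 8.59e-04 and 0.00202), against 8.92% of all genes lower. Of 9 neutrophil markers 4 were tested and none passed at an adjusted or unadjusted p of at most 0.05 (edgeR), with sums of 28.0 to 31.5 CPM in control and 29.0 to 30.5 CPM in AclyM-KO libraries. Dendritic cell markers summed to 0.54 to 1.64 and 0.44 to 0.87 CPM. T cell markers were at 0 in the control libraries and at most 0.038 CPM in AclyM-KO libraries, and B cell, NK cell, basophil and mast cell, fibroblast and erythroid markers stayed below 1 CPM in sum. Megakaryocyte and platelet markers were at 0 in control and at 0.348 to 0.960 CPM in AclyM-KO libraries, and their part in the level of Pf4 was not tested. In bulk RNA, more cells of a type and more RNA per cell cannot be told apart.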

How the data were processed

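RNA was measured by strand-specific mRNA sequencing of 3 control and 3 AclyM-KO BMDM cultures. The authors aligned reads to mm10 with STAR 2.5.2b, kept alignments with a mapping quality above 15, which removes reads placed at several sites, and deposited raw tag counts per RefSeq transcript, summed with HOMER2 at default settings. The RefSeq release is not given in the sources used here, nor what those defaults set for strand and for the region counted. The table also has 6 columns that match none of these samples and were not used.

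Each gene symbol was represented by its transcript of highest total, because a read on an exon that transcripts share may enter more than 1 count. Groups came from the genotype labels. The test was the quasi-likelihood test of edgeR 4.0.16 under R 4.3.3, after TMM and filterByExpr and with genotype as the sole term, with Benjamini-Hochberg adjustment over 11470 genes and a threshold of 0.05. Standard errors were derived from the F statistic, and intervals are at 95%. What edgeR names the biological coefficient of variation came to 8.90%, and it measures the spread between these libraries and not between mice. Library sizes for CPM are those after TMM, and RPKM values use GENCODE M21 transcript lengths, because the table holds none. Fits were tested on simulated data. Depth ranged from 19327459 to 44507233 counts over all transcripts and limits the precision of Cxcl1 and Cxcl2.

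The members, the gene lists and the tests were chosen with earlier results of these data known. Named are the 10 members, Acly and Lyz2, in each other list up to 8 genes past the threshold with the smallest adjusted p and, where few passed, up to 3 with the highest mean CPM, and markers by list. Results that need a withheld item are not reported here, although it stays in the counts. For members past the threshold, the 3 tested genes with the closest centred log2 CPM profile are named too. The control and AclyM-KO libraries share replicate numbers in the labels. Of the 21 alternatives, 19 were planned and 2 were added after seeing the data. They were DESeq2 1.42.0, limma-voom (limma 3.58.1) with sample weights, other scalings, filters, transcript choices and thresholds, a robust fit, thinning of AclyM-KO replicate 2, the replicate number as a block, each library left out, and, as the added ones, DESeq2 and no filter without AclyM-KO replicate 2.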

Additional observations from a re-analysis of the deposited data

How the results depend on the processing

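The rise of Ccl9 passed under all 19 alternatives in which it was fitted again (log2 fold change 0.58 to 0.86), that of Ccl2 under 15 (0.52 to 1.14), that of Ccl3 under 17 (0.33 to 0.57) and that of Ccl7 under 6 (0.27 to 1.04). Ccl4, Ccl5, Ccl6, Cxcl2 and Cxcl10 passed under none. The log2 fold change of Cxcl10 turned positive with total counts only (0.0012), with AclyM-KO replicate 2 thinned (0.085), with limma-voom (0.18), without control replicate 3 (0.042), and without AclyM-KO replicate 2 by edgeR (0.30), by DESeq2 (0.30) or with no filter (0.30). The cause was not tested, but 5 of these settings change the weight of AclyM-KO replicate 2. With each library left out in turn it ran from -0.24 to 0.30. Leaving out each library gave 1 to 4 members higher (1 without control replicate 1 or 3), 363 to 1105 genes higher and 235 to 1031 lower over all genes, 2 to 5 other ligands, 0 to 4 receptors and 2 to 5 regulators past the threshold. At a threshold of 0.01, 1 member was higher, 343 genes were higher and 214 lower, and 2 other ligands and 0 receptors passed. With a log2 fold change of 1 or more in size required as well, 0 members, 149 genes higher and 49 lower, 2 other ligands, 0 receptors, 0 regulators and 0 decay factors passed. Every transcript in place of 1 per gene gave 1297 higher and 1149 lower. Limma-voom gave 1110 genes higher and 1077 lower (19.1% of all genes), 4 receptors and 4 of 24 regulators. DESeq2 and no filter gave 4 regulators each (11.1% of all genes in both), and the robust fit and summed transcripts 1 receptor each (12.4% and 11.3% of all genes).

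Deviations of same-numbered libraries correlated at 0.09, 0.11 and -0.05, and those of differently numbered libraries at -0.13 to 0.07. With 3 libraries per group these values cannot settle whether the replicate numbers pair the libraries. With the replicate block, 4 of 24 regulators passed, against 13.8% of all genes, and Ccl7 passed (log2 fold change 0.72, edgeR adjusted p = 0.0132), and the counts of the other lists stayed within 1.5 times. With no filter Ccl7 also passed (0.82, adjusted p = 0.00281), as with limma-voom (0.42, adjusted p = 0.0455). Depth limits Cxcl1 and Cxcl2, with at most 5 and 55 counts in a library.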

Other observations

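The genes whose centred profiles over the 6 libraries were closest to Ccl9 were Mastl, Anln and LTO1, at Euclidean distances of 0.09, 0.12 and 0.13 log2 CPM. Closest to Ccl3 were Yars, Ino80c and Tacc3 (0.09, 0.10 and 0.10), and to Ccl2 Mbnl3, Mthfd2 and Mmp12 (0.26, 0.28 and 0.31). Mmp12 encodes macrophage elastase, and Mastl and Anln act in cell division. The profile of Ccl2 was thus less closely matched than those of Ccl3 and Ccl9. These distances over 6 libraries are a description and carry no test.

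Ppbp, a platelet and macrophage CXC chemokine that was removed by the filter, was counted 4, 3 and 2 times in control and 6, 28 and 14 times in AclyM-KO libraries. In the edgeR fit without a filter its log2 fold change was 1.87 with a standard error of 0.58 (adjusted p = 0.0322), and the AclyM-KO and control libraries did not overlap. Of the 3 megakaryocyte and platelet markers, all too low to be tested, Gp1bb was counted 0 times in control and 4, 9 and 8 times in AclyM-KO libraries, Itga2b 0 times in control and 0, 4 and 3 times, and Gp9 was at 0 throughout. Their part in the level of Ppbp was not tested. Ppbp was named after its values had been seen. Ccl24, another ligand named after its values were seen, was at 0.55, 0.45 and 0.09 CPM in control and 0.87, 1.02 and 1.31 CPM in AclyM-KO libraries and did not pass (edgeR, adjusted p = 0.0616).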
